A study of Mus musculus with 12 samples.

Results

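In RAW264.7 macrophages given FABP4 alone, few genes passed the test against untreated cells. Of 17596 genes tested, 3 passed an adjusted p of 0.05 (0.017%), 2 long intergenic RNAs that rose and the splicing factor gene Prpf38b that fell. No member of 39 lists of lipid, inflammatory, stress, growth and cell identity genes passed. The comparison sets 3 arrays of cells given FABP4 without palmitic acid against 3 arrays of cells given neither, chosen by their labels as 6 of the 12 arrays of the series.

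RAW264.7 is an established mouse macrophage line, grown in DMEM with 10% heat-inactivated fetal bovine serum. In all groups the cells were incubated for 24 h in a medium that held 0.5% BSA without fatty acids. The FABP4 group received the recombinant protein at 200 nM, and the labels do not give its species or source. The remaining 6 arrays are of cells with palmitic acid at 0.2 mM, 3 without and 3 with the same dose of FABP4. They entered the model that estimates the spread between arrays and the filter that chose the probes tested. Their values are given beside those of some genes described, and the FABP4 difference within them comes last. Whether replicate arrays stem from separate cultures is not stated in the labels, so each p-value reflects only how far these samples scatter, and that scatter can be technical.

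FABP4, also called A-FABP or aP2, is a small protein that carries fatty acids inside adipocytes and macrophages. Adipocytes also release it, and it circulates in blood. Inside macrophages it is known as a partner of lipid-sensing nuclear receptors and of inflammatory and endoplasmic reticulum stress signalling. The comparison asks whether the protein added from outside, without extra fatty acid, changes macrophage gene expression.

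The arrays lie on 2 slides. The untreated arrays and the first FABP4 array (array 1) share slide 1. FABP4 arrays 2 and 3 are on slide 2 together with all 6 palmitic acid arrays. Each array gave 59305 non-control spots, of which 42.8% to 46.7% were well above background and 0 were saturated. On a log2 scale the median standard error (SE) of a difference between groups was 0.084, and the median 95% interval reached 0.19 to either side. All 10 defining macrophage markers, among them Adgre1, Csf1r, Cd14 and Mpeg1, were well above background on all 6 arrays. Of the adipocyte markers, Adipoq, Lep, Plin1 and Cfd were not well above background on any of the 6. Col1a1, Pdgfra and Thy1 of fibroblasts and Ly6g and S100a9 of neutrophils were likewise below that limit on all 6. Markers below it on all 6 were 7 of 12 for adipocytes, 8 of 11 for fibroblasts and 8 of 12 for neutrophils. Above it on all 6 were 3 of each type, among them Agpat2, Acta2 and S100a8. Of the dendritic cell markers 4 of 12 were above it on all 6, as were 4 of 13 lymphocyte markers, among them Siglech and Cd4.

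The cells' own Fabp4 mRNA did not differ between the groups by more than its error. Its intensity, scaled to a common 75th percentile per array, was 859, 826 and 851 on the untreated arrays. With FABP4 it was 915, 832 and 795, so that the groups overlapped. The log2 difference was 0.0010 ± 0.074 (SE, n = 3 arrays a group; limma, adjusted p = 1.00). On the arrays with palmitic acid it was 1322, 1111 and 1311, and with both agents it was 1438, 1377 and 1430.

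The probes that rose are named on the array by genomic intervals, which its design gives as long intergenic non-coding RNAs (lincRNAs). The first lies at chr5:52998788-53010250 of the mouse build mm9, on the reverse strand, between the nearest probes of the named genes Lgi2 and Sepsecs. The second lies at chr17:84477999-84489215 on the forward strand, between probes of Haao and Zfp36l2. Whether they overlap annotated exons was not analysed here. Each was read by several probes of 60 bases, and the sequences below are those that passed, each with its next neighbour along the RNA, whose readings are given beside it. The chromosome 5 probes are at chr5:52999234-52999293 and chr5:52999163-52999222, and those of chromosome 17 at chr17:84489156-84489215 and chr17:84489096-84489155.
chromosome 5 probe that passed: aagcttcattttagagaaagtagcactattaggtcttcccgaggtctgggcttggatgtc
chromosome 5 neighbour: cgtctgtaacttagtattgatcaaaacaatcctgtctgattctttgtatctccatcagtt
chromosome 17 probe that passed: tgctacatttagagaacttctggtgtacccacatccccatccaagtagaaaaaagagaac
chromosome 17 neighbour: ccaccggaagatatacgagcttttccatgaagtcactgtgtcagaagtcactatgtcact

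The chromosome 5 probe that passed read 21.2, 23.2 and 18.2 on the untreated arrays and 39.8, 48.3 and 45.7 with FABP4. Every FABP4 array was above every untreated array, the array on the shared slide included. The log2 difference was 1.10 ± 0.13 (SE, n = 3 a group; limma, adjusted p = 0.047). Because no untreated array gave a signal well above background, the size of the change is uncertain. Untreated values under the lowest signal that counted as above background on their array were raised to it. The ratio was then 1.93-fold. This ratio is not a lower limit, since with normexp background correction the log2 difference was 0.32. The neighbouring probe, printed above, was not well above background on any of the 12 arrays and read 4.05 to 5.83. The array also holds a probe named 8030423F21Rik that is shifted from this neighbour by 2 bases, and it was below the limit on all 12 as well. So was the third probe of the interval.

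On chromosome 17 the probe that passed read 20.5, 24.9 and 25.4 without FABP4 and 40.2, 55.4 and 53.6 with it. Here too the groups did not overlap, and the untreated arrays were not well above background. The log2 difference was 1.07 ± 0.13 (SE; limma, adjusted p = 0.047), and the ratio formed as above was 1.88-fold. With normexp background correction the log2 difference was 0.28. The neighbour read 12.7, 16.6 and 6.52 without FABP4 and 25.3, 19.6 and 21.0 with it, so its groups did not overlap either, but only 1 of the 12 arrays was well above background. The third probe of the interval was below that limit on all 12. A probe that the array gives to an overlapping lincRNA interval on the same strand was above it on all 12, at 45.2, 28.8 and 46.0 without FABP4 and 30.6, 46.6 and 38.2 with it, and its groups overlapped.

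A probe with the same 60 bases as the one that passed stands on the array under the name 4933433H22Rik. It read 31.6, 35.0 and 29.6 without FABP4 and 30.6, 44.3 and 42.6 with it, so that FABP4 array 1 lay among the untreated arrays. Its log2 difference was 0.27 ± 0.23 (SE; limma, adjusted p = 0.87). The same sequence thus gave differences of 1.07 and 0.27 on the same arrays. The array holds 33 such pairs with both probes in the test, this pair included. Their FABP4 differences lay a median of 0.074 apart on the log2 scale. Among the 10 pairs with a mean intensity under 100, 2 lay over 0.5 apart, and the pair described here is among them. Of the 23 brighter pairs none did.

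Prpf38b, which codes for a pre-mRNA splicing factor, was the called gene that fell. Its tested probe, at chr3:108708070-108708129 in mm9, read 1174, 1003 and 1096 on the untreated arrays. With FABP4 it read 747, 705 and 765, and the log2 difference was -0.56 ± 0.068 (SE, n = 3 a group; limma, adjusted p = 0.047). All 3 FABP4 arrays lay below all untreated ones. A further Prpf38b probe read 525, 465 and 474 without FABP4 and 388, 444 and 436 with it, a log2 difference of -0.21.

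**Figure D1:**
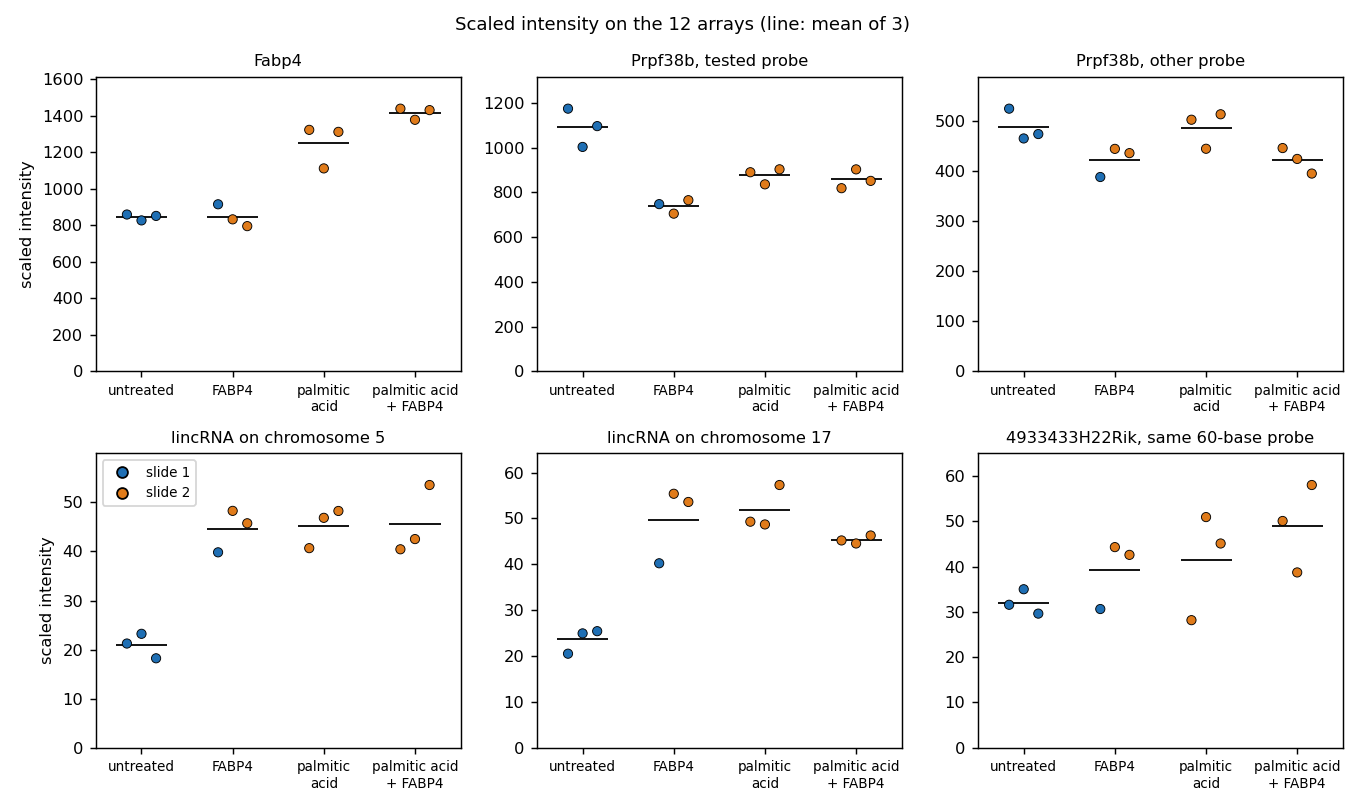
Scaled intensity (linear axis from 0) on each of the 12 arrays in the 4 groups, with slide 1 in blue, slide 2 in orange and the mean of each group as a line. The tested probes of the 3 called genes stand apart on the untreated arrays. For the further Prpf38b probe the untreated and palmitic acid arrays overlap. Fabp4 does not separate the untreated and FABP4 arrays. The probe named 4933433H22Rik, of the same sequence as the chromosome 17 lincRNA probe, has FABP4 array 1 among the untreated arrays.

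The 6 palmitic acid arrays lay on the FABP4 arrays' side of the untreated arrays for the tested probe of each of the 3 genes. They read 40.5 to 53.6 for the chromosome 5 RNA, 44.6 to 57.3 for the chromosome 17 RNA and 819 to 903 for Prpf38b. In these tested probes the untreated arrays therefore lay apart from all 9 others, and those comparisons share the untreated arrays. The further probes did not show this. On the palmitic acid arrays the further Prpf38b probe read 395 to 513.5, the probe named 4933433H22Rik 28.2 to 58.0 and the chromosome 17 neighbour 10.9 to 22.6. Each overlapped its untreated readings. The share of all genes with the untreated arrays apart from the other 9 was not computed. With palmitic acid present, the FABP4 difference was 0.00058 for the chromosome 5 RNA, -0.19 for the chromosome 17 RNA and -0.031 for Prpf38b on the log2 scale.

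The calls rested on small margins. Over 16 other ways of scaling, filtering or modelling, 10 left no gene called. Leaving out any single array other than control array 1 or FABP4 array 1 also left none. Without FABP4 array 1 the count rose to 59, and these held all 3 genes.

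Of the 12 genes with the smallest p, 9 did not pass. Among these 9, 3 were lincRNA intervals, which make up 13.1% of the genes tested. The transcript NAP097965-001 read 105, 100 and 98.1 without FABP4 and 66.9, 73.0 and 61.3 with it (log2 difference -0.60 ± 0.075, SE; limma, adjusted p = 0.051). 9330161L09Rik read 53.2, 44.2 and 54.4 without FABP4 and 84.4, 112.0 and 87.2 with it (0.90 ± 0.12, SE; limma, adjusted p = 0.061). For the rest of the 12 the adjusted p was 0.29. Of these, the brightest was a lincRNA interval on chromosome 19, at 136851, 120138 and 129510 without FABP4 and 96781, 94381 and 105162 with it, a log2 difference of -0.38. A130040M12Rik, on chromosome 11, read 91602, 89358 and 90907 without FABP4 and 77253, 77889 and 77818 with it. The log2 difference was -0.22, and the groups did not overlap. Its level was 74801 to 78370 on the palmitic acid arrays, the same side again. NAP097965-001, at 63.9 to 82, and 9330161L09Rik, at 78.8 to 92.9, also lay on the FABP4 side of the untreated arrays there. The chromosome 19 RNA, at 105455 to 120173, reached the untreated range.

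At an unadjusted p under 0.05 there were 1273 genes (7.23%), 598 higher (3.4%) and 675 lower (3.84%) with FABP4. The FABP4 and untreated arrays did not overlap for 1834 genes (10.4%), 705 of them higher (4.01%) and 1129 lower (6.42%). Over all genes the median log2 difference was -0.0077.

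The 3 FABP4 arrays were not alike. In a principal component analysis of the 6 arrays, the first component held 37.8% of the variance. It placed FABP4 array 1 at -18.6, the untreated arrays at -10.5, -3.93 and -11.7, and FABP4 arrays 2 and 3 at 22.1 and 22.8. The first component thus set the arrays of slide 2 apart from those of slide 1. The second held 17.9% and had the untreated arrays at 16.35, 8.44 and 1.74 and FABP4 arrays 1, 2 and 3 at -19.99, -2.23 and -4.31, so that its sign followed the treatment. The log2 values of FABP4 arrays 2 and 3 differed from each other with a standard deviation over genes of 0.282. Between array 1 and either of them it was 0.364 and 0.368, and between array 1 and the untreated arrays 0.27 to 0.296.

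With slide as a fixed block in the model, the FABP4 difference equals FABP4 array 1 against the 3 untreated arrays of its slide. That fit called 103 genes (0.585%), 20 higher and 83 lower, and 28 of them by over 1 on the log2 scale. One of the 3 genes named above was among them, the chromosome 17 RNA (0.77, adjusted p = 0.038 by limma). A single FABP4 array carries this comparison, and with the 4 arrays of slide 1 alone 0 genes were called, although 1829 had an unadjusted p under 0.05. The genes below were chosen for these differences, which are therefore a description.

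Prmt1, the main enzyme that dimethylates arginine in proteins, read 13494, 13193 and 13731 on the untreated arrays and 4433 on FABP4 array 1. FABP4 arrays 2 and 3 read 12053 and 12671, much nearer to the controls though still below them. A further Prmt1 probe also stood low on array 1, by -1.44 on the log2 scale beside -1.60 for the tested probe. Hmox1, the haem oxygenase of the NRF2 response, read 10829, 10672 and 11366 without FABP4, 4674 on array 1, and 9798 and 10604 on arrays 2 and 3. Its further probe moved by -0.66, and the tested one by -1.23. Nprl3, a part of the complex that restrains mTORC1 when amino acids are short, gave -1.57 and -1.50 from its probes. So these low readings on array 1 were seen by separate probes.

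Other genes of the set were not. Anp32a, a nuclear phosphoprotein of chromatin and apoptosis, read 1515, 1589 and 1608 without FABP4 and 4538 on array 1, against 1534 and 1516 on arrays 2 and 3. Its further probe differed by 0.19 beside 1.53 for the tested one. For the solute carrier Slc45a3 the further probe gave 0.0094 beside 1.40. Over the 17 genes of the 103 with further probes, 18 of 23 further probes had the same sign and 6 had at least 50% of the size. Among immune genes in the set, Cd80, a costimulatory ligand for T cells, read 1532, 1486 and 1622 without FABP4 and 923 on array 1, with 1376 and 1298 on arrays 2 and 3. Its further probe differed on array 1 by -0.17. Tap2, a subunit of the peptide transporter for MHC class I, read 14026, 14845 and 14834 without FABP4, 9055 on array 1, and 13199 and 13825 on the others.

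**Figure D2:**
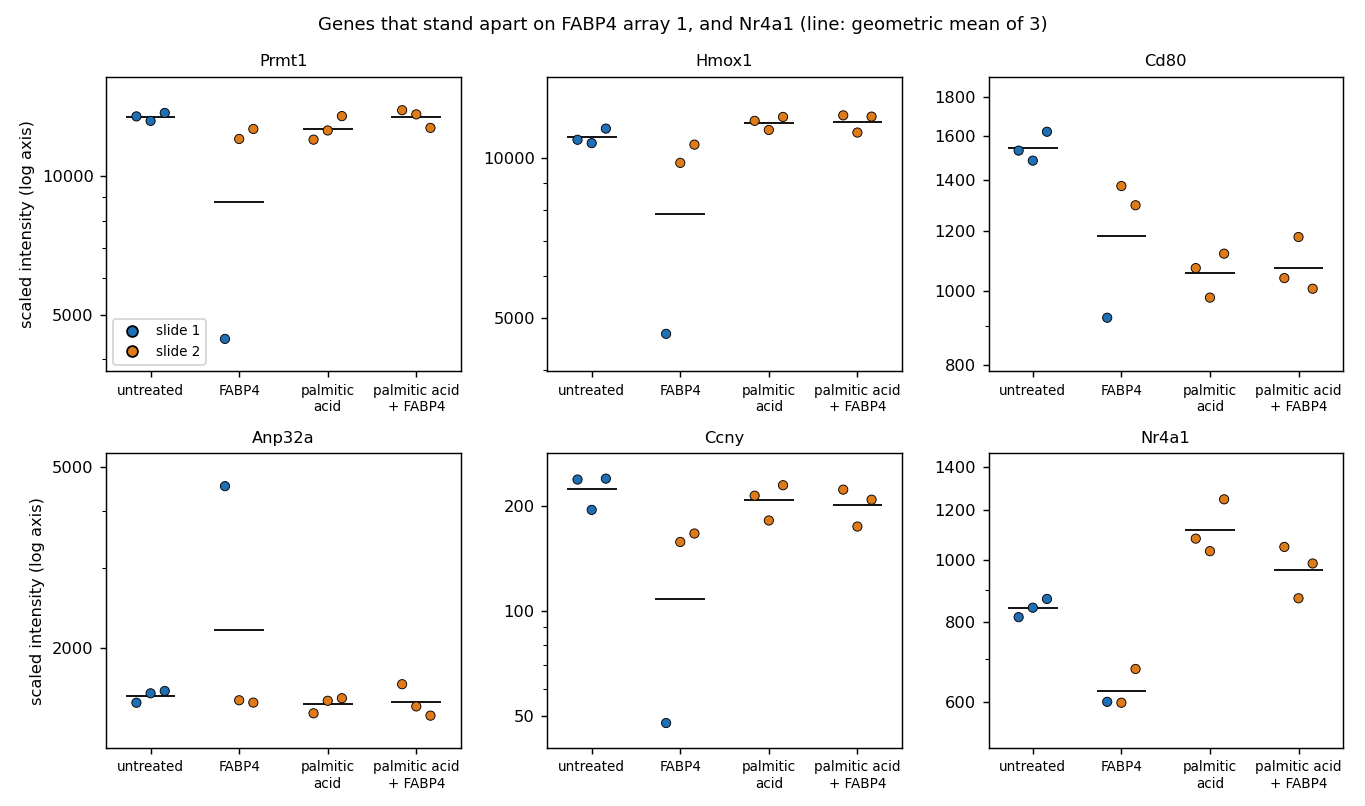
Scaled intensity (log axis) on each array for 5 genes called with slide as a block and for Nr4a1, with slide 1 in blue, slide 2 in orange and the geometric mean of each group as a line. Prmt1, Hmox1, Cd80 and Ccny are lowest on FABP4 array 1, with arrays 2 and 3 below the controls by less, and Anp32a is high on array 1 alone, while Nr4a1 is lower than the controls on all 3.

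Over the 103 genes the median size on array 1 was 0.74 on the log2 scale, and arrays 2 and 3 moved a median of 0.044 in the same direction. The difference between FABP4 arrays 2 and 3 and FABP4 array 1, which is the slide term of that model, was called for 530 genes (3.01%), 404 higher and 126 lower on arrays 2 and 3. Most genes called on array 1 were also called there. Both differences use FABP4 array 1, so a gene chosen for its value on that array tends to appear in both. The slide term and the calls over all arrays come from different models, so their counts cannot be set against each other. Array 1 is the only FABP4 array on slide 1, so a difference between slides cannot be told apart from a difference of that array.

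Set against the same controls, FABP4 arrays 2 and 3 alone gave 59 called genes (0.335%), of which 56 were higher and 3 lower. These arrays share no slide with the untreated arrays, so FABP4 and slide cannot be told apart in them. Most of the 59 were dim: their median intensity on the untreated arrays was 63.9, against 551 over all genes, and 21 were lincRNA intervals. Susd2, a cell surface protein with a sushi domain, had the smallest p and read 26.2, 28.7 and 27.6 without FABP4, 59.1 and 58.9 on arrays 2 and 3, and 33.3 on array 1. The receptor gene Erbb2 read 31.5, 29.9 and 28.04 without FABP4, 58.0 and 54.3 on arrays 2 and 3, but 20.7 on array 1, below the controls. Pecam1, an adhesion molecule of endothelium and leukocytes, read 59.0, 61.2 and 63.8 without FABP4, 95.7 and 97.9 on arrays 2 and 3, and 66.2 on array 1. FABP4 array 1 lay beyond the untreated arrays on the same side in 20 of the 59 genes, within their range in 12 and beyond them on the opposite side in 27. Over all 17596 genes tested, array 1 lay above the untreated arrays in 6405 and below them in 4394. Along the direction of the call, the median change was 0.69 on arrays 2 and 3 and -0.039 on array 1. All 6 palmitic acid arrays, which lie on slide 2, were beyond the untreated arrays on the called side in 56 of the 59. The 59 were chosen against the same untreated arrays, and the share over all genes was not computed.

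**Figure D3:**
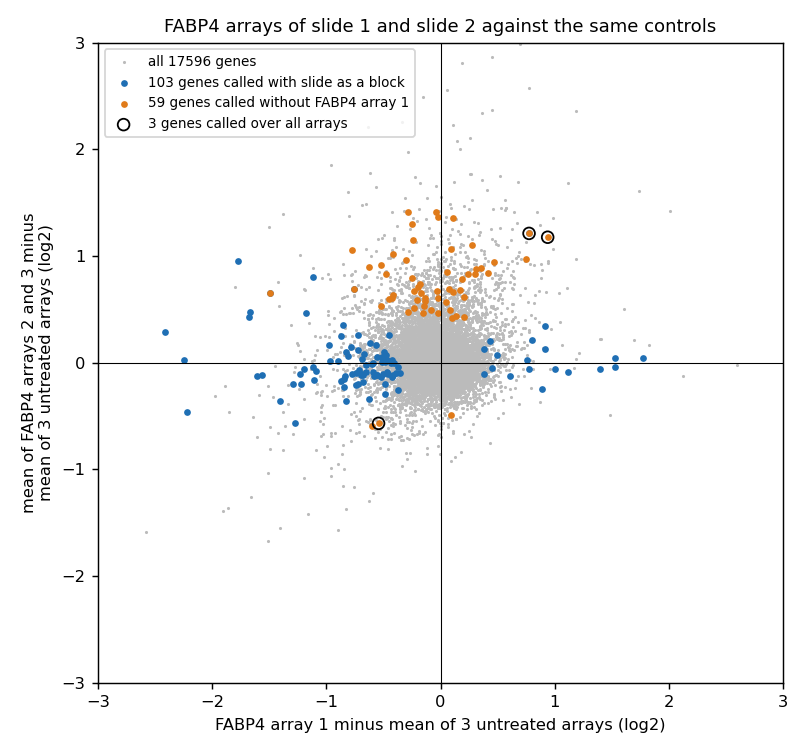
Each point is a gene, with the log2 difference of FABP4 array 1 (horizontal) and of the mean of FABP4 arrays 2 and 3 (vertical) from the same 3 untreated arrays. The 103 genes called with slide as a block (blue) spread along the horizontal axis, the 59 called without array 1 (orange) lie mostly above 0 on the vertical axis, and the 3 called over all arrays (circled) lie away from both axes. 3 genes lie outside the range of 3 shown.

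The 39 lists cover lipid handling, inflammation, stress, metabolism, growth and cell identity. They hold 967 genes, of which 799 were tested, and 0 passed at an adjusted p under 0.05 by limma. At an unadjusted p under 0.05 there were 48 (6.01%), 12 higher (beside 3.4% of all genes) and 36 lower (beside 3.84%). The arrays of the groups did not overlap for 79 of the 799 (9.89%), beside 10.4% of all genes. For 753 of them (94.24%) the 95% interval lay inside ±0.5 on the log2 scale, beside 79.77% of all genes tested. Their median difference was -0.022. List medians ran from -0.078 for neutrophil markers to 0.018 for fibroblast markers, with 3 tested members each. With slide as a fixed block, which sets FABP4 array 1 against the controls, they ran from -0.29 to 0.13, and 6 of the 799 genes were called by limma, beside 0.585% of all genes. All 6 were lower on array 1 in their tested probes. Nlrp1b and Txnip of the inflammasome list differed by -0.52 and -0.48, Tap2 by -0.69, Cd80 by -0.74 and Hmox1 by -1.23. Bax, a p53 target that promotes apoptosis, differed by -0.71. A further Txnip probe differed the other way on array 1, by 0.066.

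Fatty acid binding and transport genes are the nearest relatives of the added protein. Of 26 on the list, 17 were tested, none passed, and the median was 0.015. Fabp5, the other main fatty acid binding protein of macrophages, read 42205, 41302 and 42095 without FABP4 and 46563, 40034 and 42228 with it, with overlapping groups. Fabp3, the heart type, read 2526, 2595 and 2768 without FABP4 and 3187, 2707 and 2918 with it (log2 difference 0.16 ± 0.067, SE; adjusted p = 0.67 by limma). The fatty acid transport protein Slc27a3 read 441, 397 and 453 without FABP4 and 386, 366 and 360 with it, a difference of -0.21 (adjusted p = 0.59). Cd36, the scavenger receptor that takes up fatty acids, differed by -0.062, with a 95% interval from -0.20 to 0.075. Fabp7, the brain type, had the highest difference of the list at 0.75 ± 0.32 (SE; adjusted p = 0.68), from dim readings of 25.2, 22.04 and 15.7 without FABP4 and 39.1, 33.1 and 32.3 with it.

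**Figure D4:**
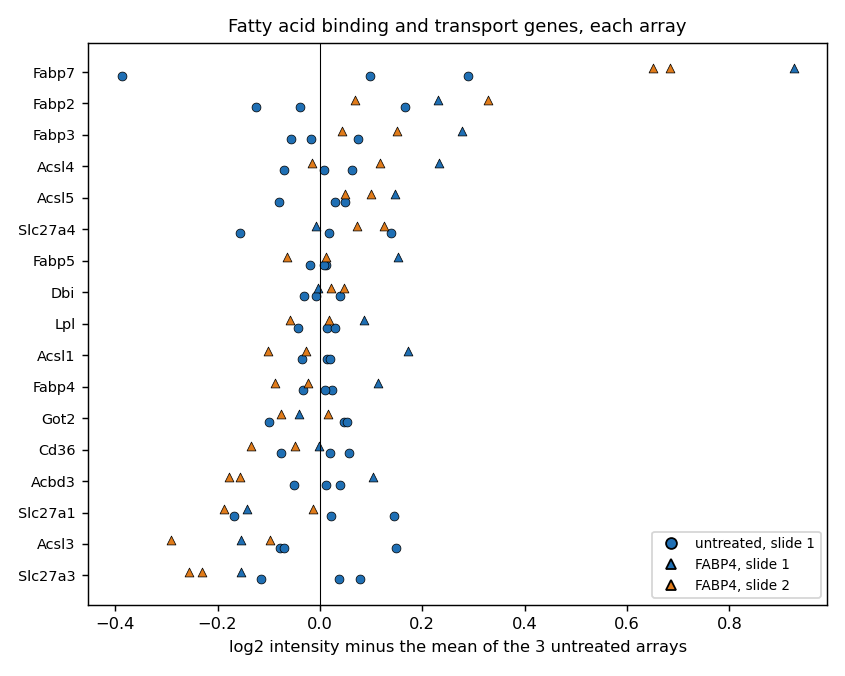
Log2 intensity of the 17 tested fatty acid binding and transport genes on each untreated (circles) and FABP4 (triangles) array, less the mean of the 3 untreated arrays, coloured by slide. For most genes the FABP4 arrays overlap the untreated ones, and of the genes on either end Slc27a3 is lower and Fabp7 higher on all 3 FABP4 arrays.

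Genes that sense, burn or store lipid did not pass either. None of 28 tested fatty acid oxidation and PPAR target genes passed, with a median of -0.018. Pparg, the nuclear receptor that FABP4 is known to feed, read 76.1, 71.5 and 71.8 without FABP4 and 82.8, 81.8 and 81.7 with it (0.17 ± 0.064, SE; limma, adjusted p = 0.63). Its groups did not overlap, though the gap was small. Cpt1a, which admits fatty acids to mitochondria, differed by -0.14 and Plin2, the lipid droplet coat protein, by 0.0043. Among 19 LXR targets and efflux genes 0 passed, and the median was -0.029. Soat1, which esterifies cholesterol for storage, read 463, 502 and 427 without FABP4 and 381, 374 and 411 with it (-0.25 ± 0.066, SE; limma, adjusted p = 0.46). The 27 cholesterol synthesis genes had a median of 0.0098, the 19 fatty acid synthesis genes -0.0047, the 19 lipid droplet genes -0.015 and the 25 sphingolipid genes -0.038, and again none passed.

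Inflammatory genes did not pass either. Of 41 tested NF-kB response genes, 0 were called, the median was -0.0084, and 40 had an interval inside ±0.5. The cytokine genes Tnf, Il6 and Il1b differed by 0.020, 0.10 and 0.049. Their 95% intervals ran from -0.11 to 0.15, from -0.11 to 0.31 and from -0.059 to 0.16, and the chemokine gene Ccl2 differed by -0.0024. Tnfaip3, which codes for the NF-kB inhibitor A20, was the list's second smallest p, at 14334, 14764 and 13922 without FABP4 and 16734, 15818 and 15171 with it (0.15 ± 0.055, SE; limma, adjusted p = 0.62). The first, Csf2, the growth factor GM-CSF, read 1170, 1273 and 1184 without FABP4 and 1410, 1468 and 1256 with it, with overlapping arrays. None of 34 genes known to rise with endotoxin passed, and their median was 0.013.

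No toll-like receptor, inflammasome or interferon gene passed. Irak4, a kinase that toll-like receptors use, read 88.5, 92.9 and 97.3 without FABP4 and 52.99, 75.4 and 74.4 with it (-0.48 ± 0.15, SE; limma, adjusted p = 0.57). Aim2, which senses cytosolic DNA, read 840, 813 and 825 without FABP4 and 637, 718 and 732 with it (-0.25 ± 0.069, SE; limma, adjusted p = 0.48). A further Irak4 probe differed the other way, by 0.12. FABP4 array 1 was the lowest for Aim2 and for the tested Irak4 probe. Other members lay on the high side, among them Tlr7 at 0.12 and Nlrc4 at 0.21. The lists of 24 toll-like receptor, 21 inflammasome and 46 interferon genes had medians of -0.038, -0.028 and -0.024, with 6, 8 and 12 differences above 0. The 17 chemokine and 16 alternative activation genes had medians of -0.047 and -0.019.

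Among 33 tested immediate-early and MAPK genes 0 passed and the median was -0.047. Nr4a1, a nuclear receptor induced within minutes by many stimuli, had the smallest p of all list genes. It read 815, 843 and 870 on the untreated arrays and 600, 598 and 676 with FABP4 (-0.43 ± 0.089, SE; limma, adjusted p = 0.37), and all FABP4 arrays on both slides lay below all untreated ones. Its interval ran from -0.63 to -0.24. On the palmitic acid arrays it read 1082, 1034 and 1247, and with both agents 1050, 872 and 989, above the untreated arrays throughout. Its FABP4 difference with palmitic acid present was -0.21 (limma, adjusted p = 0.81).

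Stress and housekeeping genes did not pass. The unfolded protein response list, 26 genes with intervals all inside ±0.5, had a median of -0.018. Hspa5, its main chaperone, read 73449, 70741 and 71607 without FABP4 and 75578, 70122 and 70323 with it. The 33 ATF4 response genes had a median of -0.046, the 23 NRF2 genes -0.031 and the 16 heat shock genes 0.0047, none called. Intervals were inside ±0.5 for 31 of the ATF4 genes and 22 of the NRF2 genes. The 40 oxidative phosphorylation and 40 ribosomal protein genes also had all intervals inside ±0.5, with medians of 0.0045 and -0.026. E2f2, a cell cycle transcription factor, read 935, 930 and 944 without FABP4 and 824, 809 and 819 with it (-0.20 ± 0.057, SE; limma, adjusted p = 0.52). The 45 cell cycle genes had a median of -0.014, the 35 lysosome genes -0.032, the 26 autophagy genes -0.066 and the 25 p53 targets -0.022, with 21 of these intervals inside ±0.5.

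No gene of macrophage identity or of contact with other cells passed, with 28 and 14 tested and medians of -0.019 and -0.0063. Cd276, an inhibitory ligand for T cells, read 38.9, 24.5 and 29.0 without FABP4 and 42.4, 47.4 and 50.7 with it (0.63 ± 0.16, SE; limma, adjusted p = 0.43). Its signal was well above background on 2 of the 3 untreated arrays. Csf3r, the G-CSF receptor, read 35965, 37919 and 38206 without FABP4 and 32707, 31400 and 34663 with it (-0.18 ± 0.051, SE; adjusted p = 0.49). Marco, a scavenger receptor induced by endotoxin, read 29.9, 39.4 and 49.4 without FABP4 and 55.9, 55.0 and 52.2 with it, a difference of 0.49 (adjusted p = 0.57). Marco, too, was well above background on 2 of the 3 untreated arrays. The 16 osteoclast genes, which this line can induce, had a median of -0.029.

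**Figure D5:**
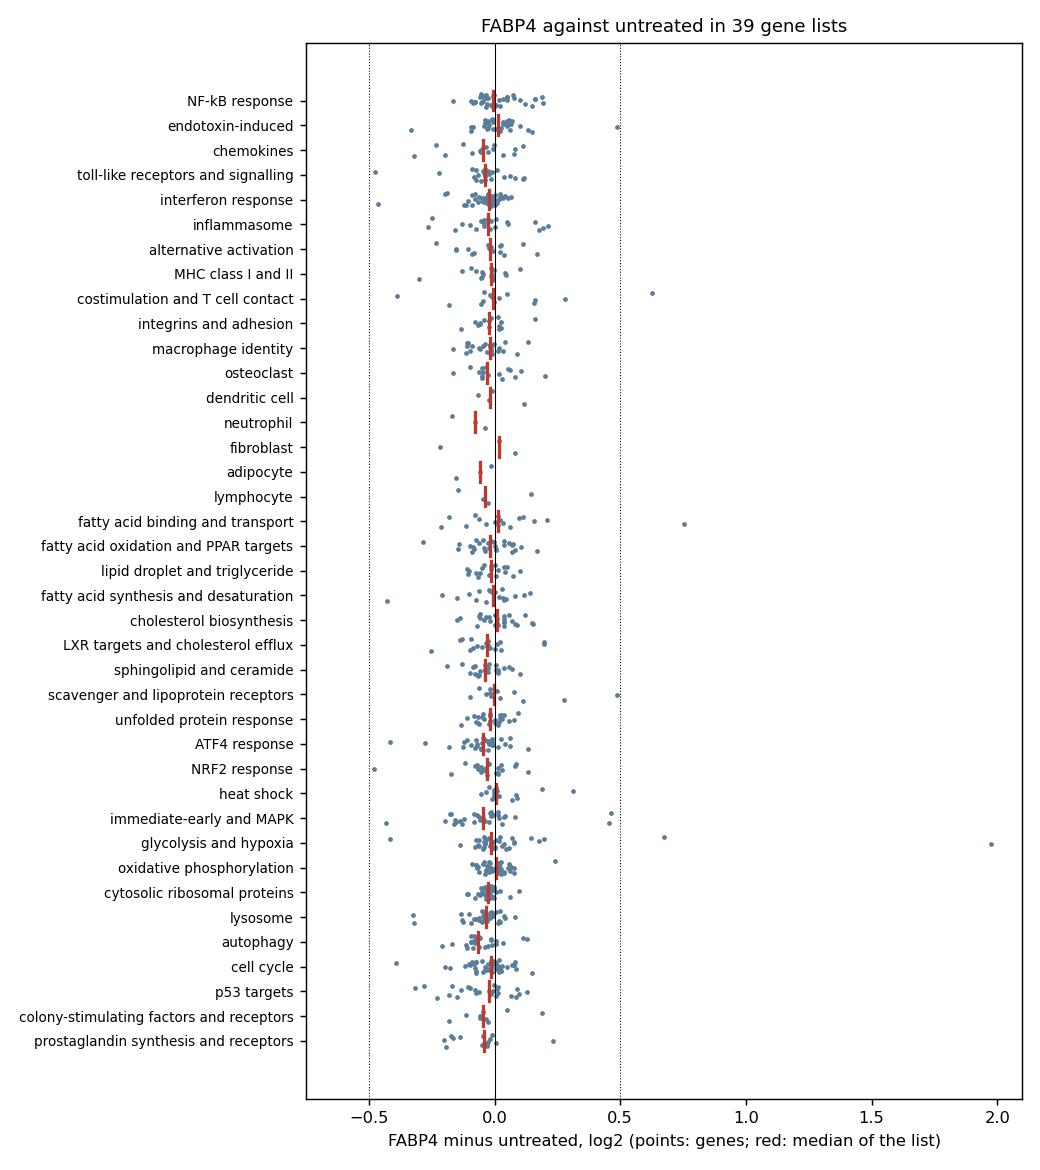
Log2 difference between the FABP4 and untreated arrays for each tested gene (points) of the 39 lists, with the list median as a red bar and dotted lines at ±0.5. All medians lie between -0.078 and 0.018, and the point farthest right is P4ha2, which was bright on FABP4 array 3 only.

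The point farthest from 0 in the lists came from 1 array. P4ha2, a collagen prolyl hydroxylase induced by low oxygen, read 6.28, 5.46 and 4.66 without FABP4 and 9.30, 5.05 and 206.6 with it (1.98 ± 1.05, SE; limma, adjusted p = 0.75). Low readings on the untreated arrays and on FABP4 arrays 1 and 2 mean that this probe met the filter through palmitic acid arrays. Adm, the hypoxia-induced peptide adrenomedullin, read 22.8, 26.6 and 27.98 without FABP4 and 33.1, 36.2 and 57.5 with it (0.67 ± 0.20, SE; limma, adjusted p = 0.56). Adm was well above background on 2 of the 3 untreated arrays.

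The design also gives the FABP4 difference with palmitic acid present, and the test of whether the differences with and without it are unequal. With palmitic acid, 0 genes were called (0%; 1034 at an unadjusted p under 0.05, limma), and the interaction also called 0 (0%; 1218). The smallest p-values of the interaction included the chromosome 17 RNA (-1.25 on the log2 scale, adjusted p = 0.30) and the chromosome 5 RNA (-1.10, adjusted p = 0.43). NAP097965-001 (0.79) and Lrrc14 were also there. Lrrc14 read 206, 219 and 195 without either agent, 247, 248 and 248 with FABP4, 215, 225 and 235 with palmitic acid, and 192, 204 and 200 with both. Fam107a read 229, 220 and 231 without either agent, 191, 181 and 208 with FABP4, 149, 169.5 and 156 with palmitic acid and 190, 225 and 211 with both. Neither interaction passed, with an adjusted p of 0.43 by limma. The interaction uses the untreated arrays, so for the RNAs on chromosomes 5 and 17 it rests on the same gap between those arrays and the others.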

How the data were processed

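Cy3-labelled RNA (50 ng of total RNA, per the labels' protocols) was read on 1-colour arrays of Agilent design 028005. Per the file headers, Agilent Feature Extraction 10.7.3.1 gave a background-subtracted intensity per spot on a linear scale, and probe positions are of mm9. These deposited intensity values are not scaled between arrays. The authors' value table matches the same intensity within 0.005, so it is linear and uncentred. Further steps of the authors are not given in the sources used here.

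Values were log2 intensity less each array's 75th percentile over non-control spots. Outlier spots were left out (10 values of tested genes). Probes well above background on all 3 arrays of any group were kept (23911), and the brightest stood for its gene. Of 17596 genes, 12241 have a current symbol. Accessions of 27235 probes (48.91%) matched the RefSeq table, which served for names only. Intensities printed are scaled to the mean 75th percentile. Group means over all 12 arrays were fitted with limma 3.58.1 (lmFit, eBayes, two-sided) in R 4.3.3, with Benjamini-Hochberg adjustment over all genes and a threshold of 0.05. The fit was run on simulated arrays with known changes and independent noise. These held no slide difference, so the run does not bear on the gap between the slides. The number of arrays limits the precision.

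The members, lists and rules for naming were chosen with earlier results of these data known. The rule named Fabp4, the 12 smallest p-values where fewer than 10 genes passed, 2 genes of smallest p per list and 6 of the interaction. Genes of FABP4 arrays taken apart by slide, and some list genes named for their role, were chosen after their values were seen. Not every gene named by the rule is reported. The 2 slides were modelled as a fixed and a random block. Replicate numbers in the labels did not pair the samples. Of the list genes, 8 were not on the array and 22 were found under older names.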

Additional observations from a re-analysis of the deposited data

How the results depend on the processing

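For FABP4 without palmitic acid, 3 genes were called. The count was 2 with quantile normalization, 3 with the deposited value table, 2 with trended and robust moderation, and 3 (all higher, median difference of all genes 0.13) without scaling, which was tried after seeing the data. It was 1 with no filter on dim probes. It was 0 with the percentile over probes above background on all arrays, the median over tested genes, normexp, a filter that asked for signal above background on all 12 arrays, averaged probes per gene, slide as a random block, the arrays of slide 1 alone, only the 6 arrays compared and a minimum log2 difference of 0.5. Those fits had 24 (the minimum difference) to 1829 genes (slide 1 alone) at an unadjusted p under 0.05. It was 103 with slide as a fixed block. With the replicate number as a block it was 0, with 1285 at an unadjusted p under 0.05, and the correlations of same-numbered arrays (0.016, 0.075 and -0.059) gave no pairing. Leaving out single arrays gave 0 to 59, with 59 without FABP4 array 1 and 1 without control array 1. By gene, the chromosome 5 RNA stayed called in 4 of 27 settings, with log2 differences of 0.32 (normexp) to 1.24, the chromosome 17 RNA in 5 of 27, with 0.28 (normexp) to 1.21, and Prpf38b in 3 of 28, with -0.62 to -0.38. The cause of these changes was not tested. With palmitic acid present the count of 0 became 1 with trended and robust moderation and 0 to 2 without single arrays. For the interaction it became 37 with slide as a fixed block and 0 to 5 without single arrays. The slide term of 530 genes became 857 with the percentile over probes above background on all arrays. None of the 3 called genes changed sign in any setting. The other named genes were not scored for sign, and some changed it with slide as a fixed block, such as Oscar (0.20 in the main fit and -0.12 there). Dim probes limit the lincRNA results, since the untreated signals were not well above background.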
